A study of Mus musculus with 18 samples.

Results

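Histone genes with and without a polyadenylated mRNA were compared gene by gene across 3 RNA-Seq library kits used on the same mouse livers. The genes described here are 75 of the 21018 genes listed in at least 1 of the 3 gene count tables. They are the 68 genes whose symbol starts with Hist1h, Hist2h, Hist3h or Hist4h, the replication-dependent histone genes, and 7 genes for histone variants with polyadenylated mRNA, H1f0, H2afx, H2afy, H2afz, H2afv, H3f3a and H3f3b, taken for contrast. The 68 hold 6 genes for the linker histone H1, 19 for H2A, 19 for H2B, 11 for H3 and 13 for H4. Of these 68, 63 were listed by the Pico table, 53 by the V4 table and 44 by the TruSeq table, and 37 by all 3. A gene that a table does not list is taken here as 0 counts in its 6 libraries. All 7 variant genes were listed in all 3 tables.

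The livers came from 12-week-old male C57/B6J mice, 3 given 20 µg/kg of the cytokine IL-1β by intraperitoneal injection and 3 given saline, with tissue taken 4 h later. RNA of each of the 6 mice is represented by 1 library per kit in the deposited tables, giving 18 libraries. The study prepared the Pico libraries a second time and also had an earlier TruSeq run of the same samples, and which of these runs the tables hold is not given in the sources used here. The IL-1β mice are called A, B and C and the saline mice D, E and F, in the order in which their values are given. The Pico kit (SMARTer Stranded Total RNA-Seq v2) starts from total RNA, removes ribosomal cDNA with the ZapR enzyme and keeps the strand. The V4 kit (SMART-Seq v4) selects poly(A) RNA and does not keep the strand, so its counts hold both strands. The TruSeq Stranded mRNA kit selects poly(A) RNA and keeps the strand. The kits also differed in RNA input (1.7 to 2.6 ng for Pico, 0.8 to 1.3 ng for V4, 200 ng for TruSeq), read length (125 bp for TruSeq and 150 bp for the others), sequencer and run, and these cannot be told apart from the kit. The libraries hold whole liver, so fewer cells of a type and less RNA per cell cannot be told apart either. Totals per library were 4024632 to 4134070 counts for Pico, 12013453 to 12352473 for V4 and 12348864 to 12858237 for TruSeq, which makes 1 count worth 0.242 to 0.249 counts-per-million (CPM) in a Pico library but 0.0778 to 0.0810 CPM in a TruSeq library. The tables were normalized separately by kit, so levels across kits are described without a test. The hepatocyte marker Alb averaged 76520 CPM in saline TruSeq libraries, and the acute-phase genes Saa3 and Lcn2 rose after IL-1β in all 3 kits, with log2 fold changes from 9.03 to 9.95.

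Replication-dependent histone mRNAs carry the histones that package new DNA in S phase. Most of them end without a poly(A) tail: a short stem-loop just after the coding region is bound by SLBP, and the pre-mRNA is cut downstream of it by a complex guided by the U7 snRNA. Replacement variants such as H3.3 (H3f3a, H3f3b), H2A.Z (H2afz, H2afv) and macroH2A (H2afy) are made throughout the cell cycle from ordinary spliced and polyadenylated mRNAs. Some replication-dependent genes are known to make a polyadenylated form as well, in cells that have left the cell cycle.

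The stem-loops below are those of members whose levels separated the kits most or least, with 7 flanking bases on each side. The sequences are 5′ to 3′ on the strand of the gene in the mouse build NCBIM37 (mm9), and capitals mark the 16 bases of the stem-loop, a stem of 6 base pairs around a loop of 4 bases. The coordinates are those of the capitals.
Hist1h1e, chr13:23713651-23713666, minus strand: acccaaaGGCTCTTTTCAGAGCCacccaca
Hist1h1d, chr13:23647656-23647671, plus strand: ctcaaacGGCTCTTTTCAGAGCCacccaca
Hist1h1c, chr13:23831381-23831396, plus strand: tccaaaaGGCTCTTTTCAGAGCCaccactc
Hist2h2ac, chr3:96024341-96024356, minus strand: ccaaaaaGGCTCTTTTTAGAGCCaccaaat
Hist1h2bc, chr13:23776516-23776531, plus strand: ttccaaaGGCTCTTTTCAGAGCCacccact
Hist1h4d, chr13:23673819-23673834, plus strand: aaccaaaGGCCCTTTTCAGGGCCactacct
H2afx, chr9:44143323-44143338, plus strand: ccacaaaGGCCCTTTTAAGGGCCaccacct

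A stem-loop of this form lay in the 150 bases after the stop codon of 59 of the 68 replication-dependent genes, against 65 of all 21930 annotated protein-coding genes (0.296%). All of the H1, H2A, H2B and H3 stem-loops start with the stem GGCTCT, whereas 11 of the H4 stem-loops start with GGCCCT and 2 with GGTCCT. Among the variant genes H2afx alone holds one. H1f0 and 3 pseudogenes of the group have no annotated stop codon and were not searched. The capitals of Hist1h1e, Hist1h1d, Hist1h1c and Hist1h2bc are identical, so the stem-loop itself does not separate these genes. They differ in what follows it in the GENCODE annotation. Hist1h1e ends 27 annotated bases past its stem-loop and Hist1h4d 25 bases past it. Hist1h1c runs on for 839 bases and ends with a poly(A) signal (AATAAA or ATTAAA in the last 50 annotated bases). In Hist1h2bc the annotated transcript has 2 exons, and the stem-loop, 34 bases after the stop codon, lies in the intron, and the last exon ends with a poly(A) signal. H2afx, the variant phosphorylated at DNA breaks, has its stem-loop 46 bases after the stop codon and 816 annotated bases beyond it, with a signal at the end. Such a signal was found in 17 of the 68 replication-dependent genes, 4 of the 7 variant genes and 68.1% of protein-coding genes.

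The 68 genes share more than the stem-loop. In the annotation 61 have 1 exon, 54 lie on chromosome 13 and 10 on chromosome 3. They are also close copies of each other: of the 100-base windows in their exons a median of 64.5% were found once in the genome, against 98.6% for the variant genes, and 24 genes were under 50%. Counts of single genes in this group are therefore uncertain where copies could trade reads. Hist2h2aa1 and Hist2h2aa2 have 0% unique windows and still hold counts, and Hist2h3c1 overlaps Hist2h2aa1 on the same strand. The stem-loop lies outside the annotated exons in 16 genes. How far reads beyond an annotated end were lost was not tested.

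Hist1h1e, a gene for the linker histone H1, had the largest mean log2 ratio of Pico to TruSeq of the 68 genes. This rank is for ratios with 0.25 CPM added to both sides. H1 binds the DNA between nucleosomes, and Hist1h1e and Hist1h1c encode abundant somatic forms. Hist1h1e had 250, 269 and 273 counts in the IL-1β Pico libraries and 410, 441 and 358 in the saline ones. In V4 it had 58, 21 and 21 counts after IL-1β and 14, 21 and 57 after saline, and in TruSeq 3, 3 and 3 after IL-1β and 0, 0 and 2 after saline. The kits did not overlap. The mean level was 81.7 ± 19.1 CPM in Pico, 2.63 ± 1.61 in V4 and 0.147 ± 0.119 in TruSeq (SD, n = 6 libraries of both treatments). Within a mouse the log2 ratio of Pico to TruSeq was 7.72 ± 0.81 and that of V4 to TruSeq 2.74 ± 0.67 (SD, n = 6 mice), with 0.25 CPM added to both sides, which understates a ratio to a level near 0. In Hist1h1e 91.5% of windows were unique.

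Hist1h1c did not separate the kits. It had 86 to 117 counts after IL-1β and 208 to 243 after saline in Pico, 285 to 332 and 521 to 833 in V4, and 214 to 380 and 478 to 651 in TruSeq. Its mean level was 39.2 ± 16.3 CPM with Pico, 41.1 ± 19.2 with V4 and 32.0 ± 13.1 with TruSeq, and its log2 ratio of Pico to TruSeq was 0.29 ± 0.29 (SD, n = 6). The order of the H1 genes thus depended on the kit: Hist1h1e held 53.8 to 65.1% of the counts of the 6 H1 genes in a Pico library, 2.62 to 16.2% in V4 and 0 to 1.35% in TruSeq, whereas Hist1h1c held 20.8 to 36.5%, 79.8 to 97.4% and 95.0 to 99.2%. These shares carry counting error too, since a TruSeq library had at most 3 counts of Hist1h1e. Hist1h1d, another somatic H1 gene, was also low in both poly(A) kits. It had 35 to 57 counts in Pico (median 43.5), 0 to 17 in V4 (median 4.5) and 1 to 14 in TruSeq (median 4.5), with a log2 ratio of Pico to TruSeq of 4.20 ± 1.05. Its annotation runs 3050 bases past the stem-loop but no poly(A) signal was found at its end.

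Of the core histone genes, H2A and H2B pair as one unit of the nucleosome and H3 and H4 as the other. Hist2h2ac, an H2A gene, had 44 to 71 counts in Pico (median 56), 1 to 8 in V4 (median 1.5) and a single count in the 6 TruSeq libraries. Its summed rate in Pico was 1050 times that in TruSeq, with an exact 95% interval of 187 to 41600 that covers counting error only. Hist1h3e, an H3 gene, had 8 to 33 counts in Pico (median 21.5), 1 to 18 in V4 and again 1 count in TruSeq, a ratio of 383 (67.5 to 15200). The interval is wide because 1 count sets its upper end. The H4 genes Hist1h4d and Hist1h4h had medians of 58.5 and 62 counts in Pico, 17.5 and 33.5 in V4 and 0.5 each in TruSeq. Their log2 ratios of Pico to TruSeq were 5.68 ± 0.53 and 5.68 ± 0.45. All 100-base windows of Hist1h4d were unique, and 61.5% of those of Hist1h4h. Hist1h4h ends 46 annotated bases past its stem-loop, holds a poly(A) signal and was nevertheless low in TruSeq. Hist2h4, with 1235 annotated bases past its stem-loop and a signal, had 10 to 25 Pico counts, 0 to 14 V4 counts and 2 to 9 TruSeq counts, a log2 ratio of Pico to TruSeq of 2.92 ± 0.46.

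Hist1h2bc, an H2B gene, stood at the other end. It had 312, 277 and 397 counts in Pico after IL-1β and 370, 402 and 310 after saline. In V4 these were 3734, 3616 and 3885 and then 3866, 4126 and 4066, and in TruSeq 673, 639 and 781 and then 895, 837 and 723. Pico and TruSeq libraries overlapped while V4 lay above both. The log2 ratio was 0.48 ± 0.11 for Pico to TruSeq, 2.41 ± 0.14 for V4 to TruSeq and -1.93 ± 0.18 for Pico to V4 (SD, n = 6). Hist2h2be and Hist2h3c1, for H2B and H3, had the lowest ratios of Pico to TruSeq among members with at least 1 CPM in either kit, -1.84 ± 1.67 and -0.84 ± 0.67, both negative in 6 of 6 mice. Their libraries overlapped, although the counts of Hist2h2be were 0 to 12 in Pico and 30 to 69 in TruSeq, where 1 count is worth less CPM. Hist3h2a, an H2A gene in the small Hist3 cluster, and Hist1h2bg, an H2B gene, overlapped in every pair of kits, as did Hist2h3c2-ps, annotated as a pseudogene. Hist2h2aa2, the H2A gene with no unique window, had 38 to 89 Pico counts, 46 to 148 V4 counts and 1 to 6 TruSeq counts, and the largest log2 ratio of V4 to TruSeq in the group, 3.62 ± 0.41.

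**Figure D1:**
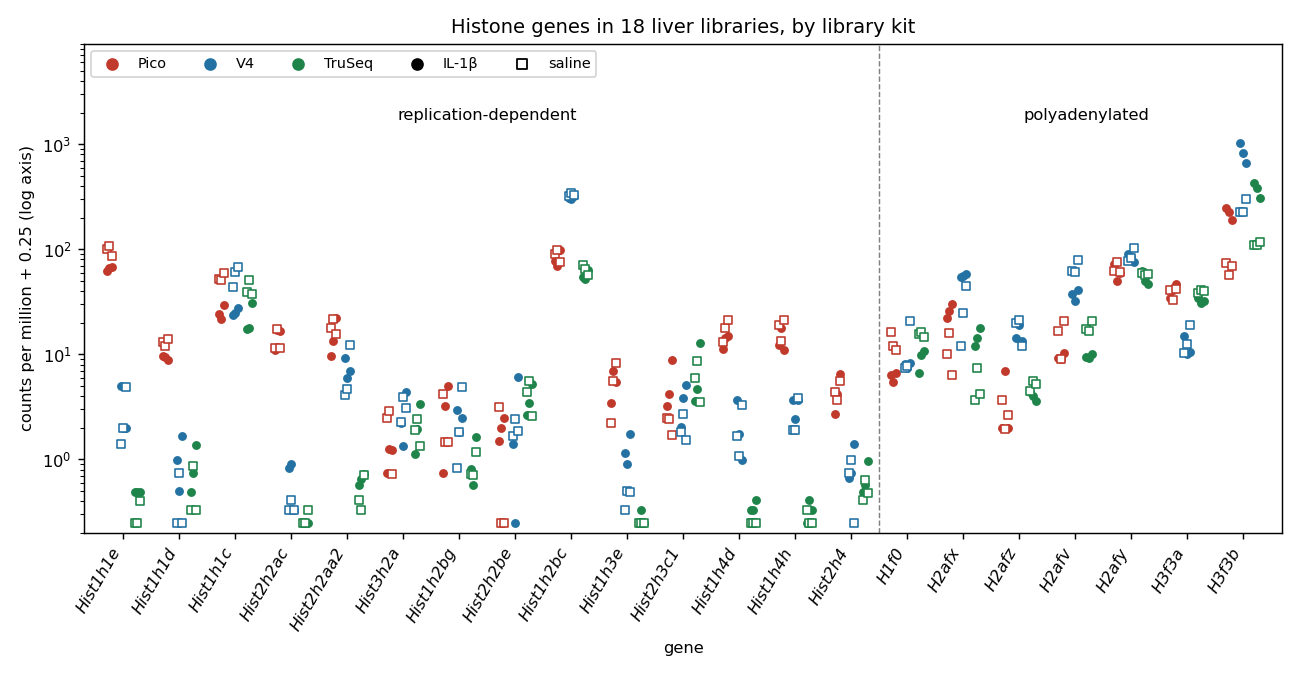
Level of 14 replication-dependent and 7 polyadenylated histone genes in each of the 18 libraries, as CPM plus 0.25 on a log axis; points at 0.25 hold 0 counts. Filled circles are IL-1β mice and open squares saline mice, coloured by kit: Hist1h1e, Hist1h1d, Hist2h2ac, Hist1h3e, Hist1h4d and Hist1h4h lie highest in Pico and near 0 in TruSeq, while the Pico and TruSeq libraries of Hist1h1c and of all 7 variant genes overlap.

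Per kilobase of annotated exon, which allows genes to be compared within a kit, Hist1h2bc and Hist1h1e were the highest of the 75 genes in Pico, at 115 ± 17.1 and 109 ± 25.6 CPM per kb (SD, n = 6), and did not differ beyond their spread. H3f3b followed at 48.4 CPM per kb, then Hist1h4d at 39.0 and Hist1h4h at 32.9. In TruSeq Hist1h2bc and H3f3b led, at 81.8 and 81.4 CPM per kb, then H1f0 at 22.6 and Hist1h1c at 20.5, and Hist1h1e stood at 0.196. The level of H1f0, a linker variant of resting cells, rests on a gene model of only 534 exonic bases that GENCODE labels a pseudogene. The 6 libraries of a kit mix both treatments, so the SD of H3f3b also holds its response to IL-1β.

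Over the whole group, 23 of the 68 replication-dependent genes (33.8%) had all 6 Pico libraries above all 6 TruSeq libraries, against 8.26% of all listed genes, and 0 lay below, against 6.25%. By type these were 4 of 6 H1, 7 of 19 H2A, 1 of 19 H2B, 3 of 11 H3 and 8 of 13 H4 genes. Of the 23, 18 had at least 50% unique windows. The median log2 ratio of Pico to TruSeq was 1.27 over the 68 genes, -0.16 over the 7 variant genes and 0 to 2 decimals over all listed genes (-0.0043). None of the 7 variant genes was apart in this pair. Pico lay above V4 for 17 of the 68 (25.0%, against 19.9% of all genes) and below it for 1, Hist1h2bc (1.47%, against 10.2%). V4 lay above TruSeq for 12 (17.6%, against 8.4%) and below it for 0 (against 19.1%). In TruSeq 24 of the 68 genes were at 0 in all 6 libraries, so neither Pico nor V4 could lie below TruSeq there. This limits what both counts of 0 show. With every library thinned to 4024632 counts, Pico lay above TruSeq for 18 of the 68 genes and V4 for 5. No share of all genes is given at that depth, so these 2 counts cannot be set against a background. The share of genes higher in Pico than in V4 was near the background, and the median log2 ratio was 1.04 over the 68 genes and 0.17 over all genes.

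The polyadenylated variants moved between kits in another pattern. H2afv and H2afz, both for H2A.Z, H2afy, H2afx and H3f3b had their highest mean level in V4. For H2afv, H2afz and H2afy the log2 ratios of V4 to TruSeq were 1.92 ± 0.09, 1.86 ± 0.37 and 0.63 ± 0.17, with all 6 V4 libraries above, and all 6 V4 libraries of these 3 genes lay above the Pico libraries too. H3f3a went the other way. It had 118 to 233 counts in V4, 380 to 525 in TruSeq and 135 to 186 in Pico, and its log2 ratio was -1.52 ± 0.32 for V4 to TruSeq and 0.13 ± 0.30 for Pico to TruSeq. H3f3a shares the annotation with Gm16067 and Gm17275 on the opposite strand, and V4 does not keep the strand. Whether reads of that strand entered its V4 counts was not tested. H2afx, the variant with a stem-loop and a poly(A) signal, had a log2 ratio of Pico to TruSeq of 0.95 ± 0.31, and of V4 to TruSeq of 2.13 ± 0.66, the largest of the 7. H3f3b had ratios of -0.75 ± 0.12 and 1.16 ± 0.13. The ratios of H2afx were positive in 6 of 6 mice and those of H3f3b had 1 sign in 6 of 6, though the libraries of both genes overlapped.

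**Figure D2:**
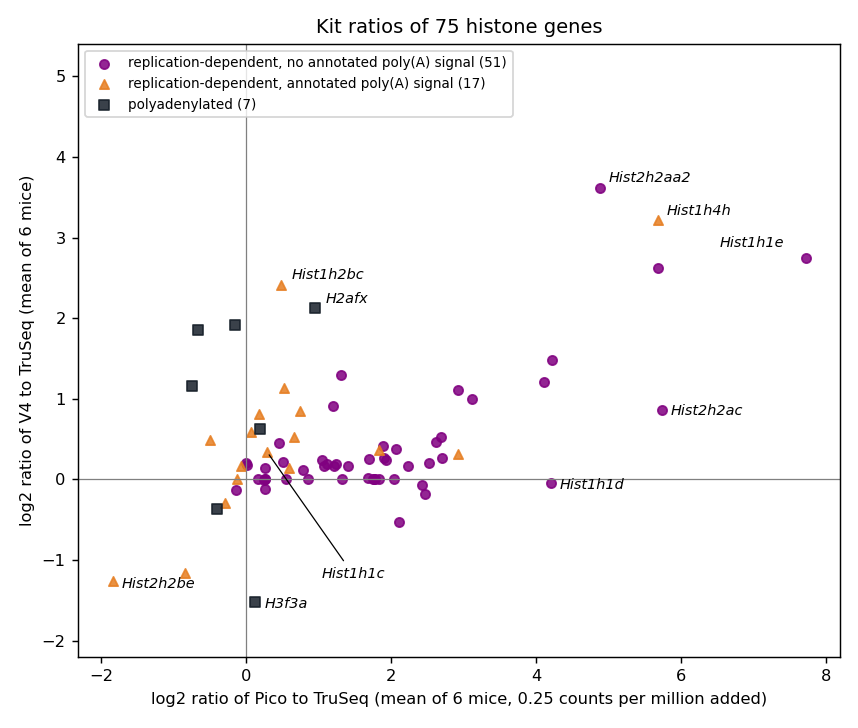
Mean log2 ratio over 6 mice of Pico to TruSeq (horizontal) and of V4 to TruSeq (vertical) for the 75 histone genes, with 0.25 CPM added. Circles are replication-dependent genes without and triangles those with a poly(A) signal at the annotated end, squares the variant genes: circles spread to the right as far as Hist1h1e at 7.72, while 14 of the 17 triangles and all squares lie between -1.84 and 0.95 on the horizontal axis, the exceptions being the H4 genes Hist1h4a, Hist1h4h and Hist2h4.

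The 68 genes were also grouped by the annotated poly(A) signal, which uses no counts. The 51 genes without a found signal, among them the 3 pseudogenes that were not searched, summed to 186 ± 26.8 CPM in Pico, 20.2 ± 8.88 in V4 and 3.90 ± 2.13 in TruSeq (SD, n = 6). The 17 genes with a signal summed to 153 ± 23.9, 374 ± 32.7 and 105 ± 22.5 CPM. The genes with a signal thus held 41.1 to 47.0% of the replication-dependent counts of a Pico library, 92.4 to 97.5% of a V4 library and 93.5 to 97.9% of a TruSeq library. Within a mouse the summed log2 ratio of Pico to TruSeq was 5.70 ± 0.67 without and 0.55 ± 0.13 with a signal, and the lowest mouse of the first group, at 4.50, lay above the highest of the second, at 0.71. Gene by gene the median log2 ratio was lower, at 1.76 without and 0.29 with a signal. A few genes carry both sums. Hist1h1e held 36.8 to 50.9% of the summed CPM of the first group in Pico, and without it the other 50 genes summed to 104 ± 13.3 CPM in Pico and 3.75 ± 2.08 in TruSeq, a log2 ratio of 4.92 ± 0.54. Hist1h1c and Hist1h2bc together held 75.1 to 90.0% of all replication-dependent counts in TruSeq and 30.5 to 38.3% in Pico. In all, 20 of the 51 without a signal (39.2%) lay above TruSeq in Pico without overlap, against 8.26% of all listed genes. Of the 17 with a signal 3 did (17.6%). The 3 are the H4 genes Hist1h4a, Hist1h4h and Hist2h4. Hist1h4a rested on 1 to 10 counts in a Pico library and 0 to 2 in a TruSeq library, where 1 count is worth less CPM. The annotated length after the stop codon and the ratio of Pico to TruSeq had a Spearman rho of -0.224, a weak relation, over 33 genes of at least 1 CPM in any kit, genes that share the same libraries and overlapping sequence. The other RNA made without a classical poly(A) tail that could be set beside them was Malat1, the only one listed of 9 sought. It ranged from 5899 to 8698 CPM in Pico libraries, from 560 to 763 in V4 libraries and from 784 to 1714 in TruSeq libraries.

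**Figure D3:**
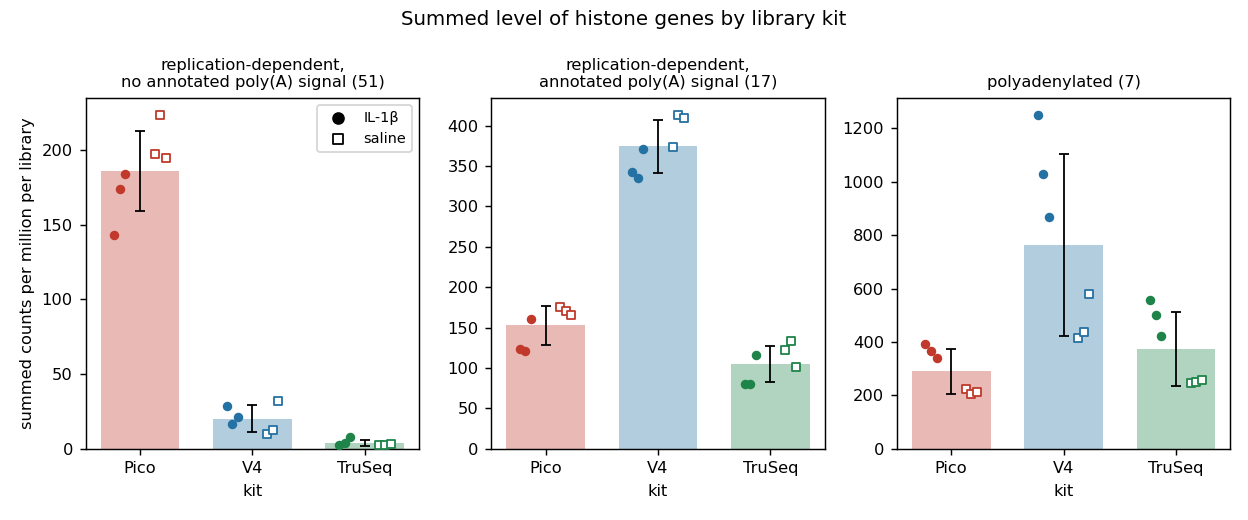
Summed CPM per library of the 51 replication-dependent genes without an annotated poly(A) signal, the 17 with one and the 7 polyadenylated variant genes, by kit; bars are means, error bars SD over 6 libraries, circles IL-1β and squares saline mice, and each panel has its own axis from 0. The first group falls from 186 in Pico to 3.90 in TruSeq, while the other groups are highest in V4.

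Pico detected the most replication-dependent genes. A Pico library held at least 1 count for 43 to 55 of the 68 genes, a V4 library for 34 to 38 and a TruSeq library for 20 to 32, although Pico libraries were the shallowest. At equal depth, with libraries thinned to 4024632 counts, the ranges were 43 to 55, 23 to 33 and 12 to 26. Every library of every kit held all 7 variant genes. In TruSeq 52 of the 68 genes had no library over 3 counts and 24 were at 0 in all 6, against 15 and 5 in Pico. The 4 genes listed in TruSeq and not in Pico were Hist1h1t, the H1 gene of the testis, Hist1h2ai, Hist3h2ba and the pseudogene Hist3h2bb-ps. The first 3 hold a poly(A) signal and the pseudogene was not searched. Hist1h1t had at most 3 counts in a TruSeq library and Hist1h2ai at most 1. Pico libraries were shallower, so absence of such genes from Pico cannot be told apart from depth.

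The response to IL-1β was tested within each kit by limma-voom over all genes of that table, and H3f3b, H2afx and Hist1h1c were called in all 3 kits. H3f3b, for the replacement histone H3.3, had 1005, 919 and 761 counts after IL-1β and 299, 235 and 286 after saline in Pico. In V4 it had 12562, 9908 and 7985 against 2720, 2747 and 3736, and in TruSeq 5355, 4735 and 3777 against 1383, 1391 and 1506. In every kit the groups were apart. Its log2 fold change was 1.73 (SE 0.15, adjusted p = 6.51e-07) in Pico, 1.72 (SE 0.19, adjusted p = 2.93e-04) in V4 and 1.73 (SE 0.13, adjusted p = 1.65e-05) in TruSeq. H3f3a, which encodes the same protein, had log2 fold changes of 0.05 in Pico and -0.22 in V4, neither past the threshold, and was called lower in TruSeq at -0.30 (adjusted p = 0.0430). That call was lost when any 1 mouse was left out and with TMM scaling, which gave -0.14 (adjusted p = 0.344).

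H2afx rose in all 3 kits. It had 89, 103 and 121 counts after IL-1β and 40, 65 and 25 after saline in Pico, 666, 664 and 704 against 141, 295 and 554 in V4, and 145, 173 and 219 against 43, 91 and 51 in TruSeq. No IL-1β library was as low as a saline library of its kit. The log2 fold change was 1.38 (SE 0.31, adjusted p = 0.00529) in Pico, 1.25 (SE 0.36, adjusted p = 0.0481) in V4 and 1.63 (SE 0.26, adjusted p = 0.00123) in TruSeq. In V4, leaving out any 1 mouse other than saline mouse F took the adjusted p to between 0.106 and 0.152, with log2 fold changes from 0.76 to 1.28. In Pico it reached 0.0527 without IL-1β mouse B and 0.0504 without saline mouse D.

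Lower levels after IL-1β were called for H1f0 and H2afv. H2afv had 113, 110 and 121 counts after IL-1β and 216, 209 and 262 after saline in TruSeq, and 450, 389 and 492 against 736, 733 and 979 in V4. Its log2 fold change was -0.95 (SE 0.14, adjusted p = 6.88e-04) in TruSeq and -0.87 (SE 0.20, adjusted p = 0.0187) in V4. In V4 the adjusted p passed 0.05 without IL-1β mouse A (0.0603) or B (0.0845) or saline mouse E (0.0514). In Pico its value was -0.62 (SE 0.35, adjusted p = 0.260), where saline mouse E had 36 counts against 67 and 84 in the other saline mice. Without that mouse the value was -0.98 (adjusted p = 0.0361). H1f0 was called lower in TruSeq, at -0.80 (SE 0.18, adjusted p = 0.00731), and in Pico, at -1.07 (SE 0.35, adjusted p = 0.0421), on 21 to 26 counts after IL-1β and 44 to 66 after saline. In V4 its value was -0.45 (SE 0.43, adjusted p = 0.581), the groups overlapped, and without saline mouse F, the highest library, the value was 0.054. The Pico call was lost with TMM scaling (adjusted p = 0.0738), with DESeq2 (adjusted p = 0.0658) and without any 1 mouse except saline mouse F. H2afy and H2afz passed the threshold in no kit, with log2 fold changes from -0.35 to 0.17, and TMM scaling turned the sign of H2afy in V4 and TruSeq and of H2afz in V4. The 7 variants thus held 2 calls higher and 1 lower in each of Pico and V4, and 2 higher and 3 lower in TruSeq. Over all genes 6.78% were called higher and 10.8% lower by Pico, 3.6% and 7.41% by V4, and 12.3% and 21.8% by TruSeq.

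Among the replication-dependent genes Hist1h1c fell in all 3 kits. Its counts after IL-1β were 96, 86 and 117 in Pico against 212, 208 and 243 after saline, 285, 298 and 332 against 521, 731 and 833 in V4, and 214, 216 and 380 against 489, 651 and 478 in TruSeq. The groups were apart in each kit. The log2 fold change was -1.13 (SE 0.19, adjusted p = 5.40e-04) in Pico, -1.16 (SE 0.23, adjusted p = 0.00905) in V4 and -0.99 (SE 0.22, adjusted p = 0.00614) in TruSeq. Leaving out saline mouse E in V4 or IL-1β mouse B in TruSeq took the adjusted p just past the threshold of 0.05, at log2 fold changes of -1.10 and -0.86. Hist1h2bc had log2 fold changes of -0.11 (SE 0.16) in Pico, -0.10 (SE 0.13) in V4 and -0.19 (SE 0.12) in TruSeq, none past the threshold and turned to between 0.01 and 0.07 by TMM scaling in Pico and V4.

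Hist1h1e was called lower in Pico, the kit with 250 to 441 counts of it a library. The level was 65.4 ± 3.16 CPM in the 3 IL-1β mice (SD) against 98.0 ± 10.4 in the 3 saline mice, without overlap, and the log2 fold change was -0.58 (SE 0.14, adjusted p = 0.00978). Without IL-1β mouse A or B the adjusted p was 0.0594 or 0.0516. V4, at 14 to 58 counts, gave 0.20 (SE 0.67, adjusted p = 0.880). TruSeq called Hist1h1e higher (adjusted p = 0.0331), but on 3, 3 and 3 counts against 0, 0 and 2, all at or under the floor of 3 counts, so no fold is given. The other calls of replication-dependent genes rested on at most 10 counts a library. They were Hist1h1b and Hist1h4d in TruSeq, each with 1, 1 and 2 counts against 0, 0 and 0, both called higher. Hist1h3f in V4, with 3, 3 and 6 counts against 0, 0 and 0, was at least 4.02-fold higher by a floor of 3 counts over the group. In Pico Hist1h3b had 7, 8 and 6 counts against 0, 4 and 0, Hist1h2bf 3, 3 and 4 against 0, 0 and 1, and Hist1h2af, called lower, 4, 0 and 0 against 7, 10 and 4.

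In all, replication-dependent genes held 2 calls higher and 3 lower of 63 tested in Pico, 1 and 1 of 53 in V4 and 3 and 1 of 44 in TruSeq, shares under the background over all genes in both directions. Among genes with at least 10 counts in 3 libraries the calls were Hist1h1c and Hist1h1e in Pico, both lower, and Hist1h1c in V4 and in TruSeq. With TMM scaling the median of all genes was 0.13, 0.17 and 0.16 higher on the log2 scale. In V4 31 and in TruSeq 52 of the 68 genes had no library over 3 counts, so no median over the members is given there. The summed level of the 51 genes without a poly(A) signal in Pico was 167 ± 21.1 CPM in IL-1β mice against 205 ± 16.1 in saline mice (SD, 3 mice each), without overlap, but most of that difference was Hist1h1e. The other 50 genes summed to 102 ± 17.9 and 107 ± 9.90 CPM, and the treatments overlapped. The sums of the 51 overlapped in V4 and TruSeq too. The 17 genes with a signal, led by Hist1h2bc and Hist1h1c, summed to 135 ± 21.7 CPM in IL-1β mice against 170 ± 4.99 in saline mice with Pico. With V4 they summed to 350 ± 18.8 against 399 ± 21.9. The treatments did not overlap in either kit, but did in TruSeq. Hist1h1c alone lay at 21.4 to 29.0 CPM after IL-1β and 50.5 to 58.8 after saline in Pico. In V4 it lay at 23.4 to 27.5 and 43.4 to 67.4. Hist1h2bc was called in no kit. The sum without Hist1h1c is not given.

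**Figure D4:**
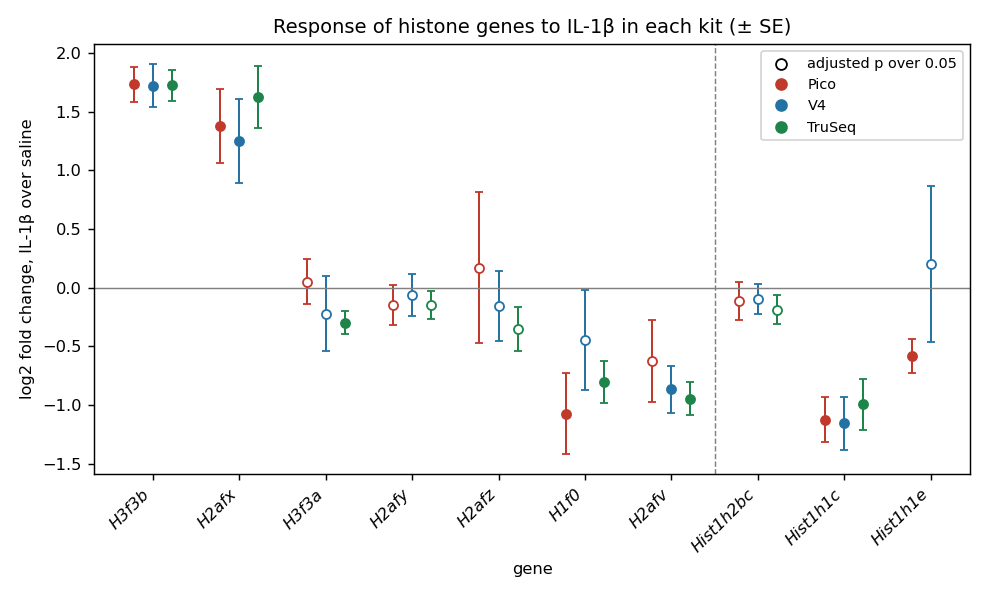
Log2 fold change of IL-1β over saline with its SE in each kit for the 7 variant genes and 3 replication-dependent genes; filled points passed an adjusted p of 0.05 in limma-voom. H3f3b and H2afx lie above 0 and Hist1h1c below 0 in all kits; Hist1h1e is shown for Pico and V4 only, since its TruSeq libraries held at most 3 counts.

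The difference in response between kits was tested directly as an interaction. Only histone genes with a count in both kits of a pair could be tested. They numbered 47 in the pair of Pico and TruSeq, 46 in that of V4 and TruSeq, 57 in that of Pico and V4. None of them passed by limma-voom, and neither did any other gene tested (0% of 17207 genes for Pico and TruSeq, 0% of 17147 for V4 and TruSeq and 0% of 16395 for Pico and V4). At an unadjusted p under 0.05 in limma-voom there were 4, 3 and 5 histone genes. The share of all genes at that p is not given, so these counts cannot be set against a background. By DESeq2 0 histone genes were called in each pair, against 4, 62 and 14 of all genes. For H3f3b the response in Pico minus that in TruSeq was 0.01 (SE 0.21) and for Hist1h1c -0.13 (SE 0.31). The smallest p among histone genes for Pico and TruSeq was that of Hist1h1e (difference -2.65, SE 0.71, adjusted p = 0.840), with at most 3 counts in a TruSeq library. In both other pairs it was that of Hist1h3b (adjusted p = 0.445 and 0.553), with at most 2 counts in a V4 or TruSeq library.

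Other genes of the pathway and the cell cycle were tested in the same fits. Of 18 S phase and proliferation genes, 2 fell and 0 rose in Pico, 2 fell and 1 rose in V4 and 3 fell and 1 rose in TruSeq, where 10.8%, 7.41% and 21.8% of all genes were called lower. Thymidine kinase Tk1 and the ribonucleotide reductase subunit Rrm2 fell in all 3 kits, Tk1 by 2.52 and Rrm2 by 2.25 on the log2 scale in TruSeq. The summed level of the list ranged from 56.8 to 66.3 CPM after IL-1β and 91.7 to 95.1 after saline in TruSeq. Of 15 genes of histone mRNA processing, 2 of 14 tested rose in Pico (Casp8ap2 and Srrt), 1 rose and 1 fell in V4 (Mif4gd and Lsm10) and 5 rose and 1 fell in TruSeq, where 6.78%, 3.6% and 12.3% of all genes were called higher. Slbp, the stem-loop binding protein, passed in no kit, with log2 fold changes from 0.32 to 0.80. Of 4 other variants, Cenpa, the centromeric H3, fell in Pico and TruSeq, by 3.25 and 2.08 on the log2 scale, while H2afj, H1fx and H2afy2 passed nowhere. Of the 4 sentinels of the response 3 rose in Pico and TruSeq and 2 in V4.

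Cell markers moved with the treatment too. TruSeq called 12.3% of all genes higher and 21.8% lower. For Pico these shares were 6.78% and 10.8%, while V4 had 3.6% and 7.41%. No test set the short marker lists against these shares. Of 6 neutrophil markers 4 rose in each kit, although only 4 could be tested with Pico and 5 with V4. The sum of the 6 in TruSeq was 36.5 to 75.0 CPM after IL-1β and 1.56 to 2.77 after saline. Ngp was at 0 in every saline library. The 5 hepatocyte markers summed to 59700 to 66220 CPM after IL-1β and 85700 to 103500 after saline in TruSeq, with 3 of 5 called lower there and in V4 and 5 of 5 in Pico. Of 5 Kupffer cell markers listed, 4 fell and 1 rose in TruSeq, 3 fell in Pico and 1 in V4. All 3 stellate cell markers fell in TruSeq, 2 in Pico and 1 in V4; of 3 endothelial markers 2 fell and 1 rose in Pico and TruSeq and 1 fell in V4; of 5 lymphocyte markers 2 fell in TruSeq; and no erythroid marker was called. The part of these cells in the changes of H3f3b, H2afx and Hist1h1c was not tested.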

How the data were processed

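Liver RNA of 6 mice is represented by 1 library per kit, from preparations of which some were repeated (which run was deposited is not given in the sources used here). The authors aligned the reads with GSNAP to the mouse build mm9, normalized them by resampling with PORT and deposited 1 table of gene counts per kit. The values are whole-number counts per gene of reads that fit the annotated exon junctions, from the sense strand in Pico and TruSeq and from both strands in V4. Each kit was resampled by itself. No molecular identifiers were used, so intervals and floors cover counting error only, and 0 columns belonged to other series.

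From these counts, CPM was computed on the column totals (Python 3.11.15, numpy 2.4.6, pandas 2.3.3, scipy 1.17.1, matplotlib 3.10.9). IL-1β was tested against saline within each kit by limma-voom (R 4.3.3, limma 3.58.1) with 3 mice per group, on genes with at least 1 count in a kit, and genes with a Benjamini-Hochberg adjusted p of at most 0.05 over all genes of the table were called. Differences in response used an interaction term over both kits. The 3 mice of a treatment are separate animals. A kit was called above another where all 6 libraries were above all 6 of the other. Stem-loops, poly(A) signals and unique 100-base windows were found in NCBIM37 with the GENCODE annotation. Alternatives were edgeR 4.0.16, DESeq2 1.42.0, TMM scaling, at least 10 counts in 3 libraries, thinning, an adjusted p of 0.1, other detection minimums, and leaving out each mouse. The tests were tried on simulated counts.

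Same-numbered libraries came from 1 mouse. Over 8960 genes the deviations of a mouse in Pico and TruSeq correlated at r = 0.188 to 0.427, in V4 and TruSeq at 0.133 to 0.397 and in Pico and V4 at 0.0597 to 0.207. The members and the lists of genes were chosen with earlier results of these data known. The members named were Hist1h1e, the variant genes, the 3 highest of each histone type by mean CPM, every member called in a kit, the 2 highest and 2 lowest kit ratios among members of at least 1 CPM, and the smallest p of each interaction. From the other lists, genes called in every kit that lists them were named, at most 4 a list. Other genes were named after their values were seen.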

Additional observations from a re-analysis of the deposited data

Results flagged for a closer look

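In 6 of 81 groups of 6 within-mouse log2 kit ratios, 1 mouse lay apart from the other 5 by Dixon's test, which chance gives in about 1 of 20 groups. For H2afv saline mouse E had a ratio of Pico to TruSeq of -0.88, where the other mice lay between -0.06 and 0.06, and a ratio of Pico to V4 of -2.76, where the others lay between -2.02 and -1.86. For H2afx saline mouse F had a ratio of V4 to TruSeq of 3.42 against 1.71 to 2.20. For Hist2h4 the same mouse, with 0 counts in V4, had a ratio of V4 to TruSeq of -0.95 against 0.38 to 0.88 and of Pico to V4 of 4.48 against 1.88 to 2.56. For Hist2h3c2-ps IL-1β mouse A, with 1 count in V4, had a ratio of V4 to TruSeq of -0.97 against 0.12 to 0.70.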

How the results depend on the processing

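Replication-dependent genes above TruSeq in Pico numbered 18 after thinning, 23 with TMM scaling and 23 to 27 without any 1 mouse. Their summed log2 ratio without a poly(A) signal lay between 5.57 and 5.94 in these settings, and at 6.32 with genes grouped by at least 150 annotated bases after the stop codon, a grouping chosen after seeing the data. Without Hist1h1e, also tried after seeing the data, it was 4.92. Of the values that answer a comparison 296 alternatives gave the same reading and 58 moved. Higher calls of replication-dependent genes numbered 2 for Pico, 1 for V4 and 3 for TruSeq. With edgeR they numbered 1, 0 and 0, and with DESeq2 or with at least 10 counts in 3 libraries 0 in each kit. In V4 they numbered 0 after thinning and 2 at an adjusted p of 0.1, where lower calls also numbered 2. Lower calls of variant genes in Pico went from 1 to 0 with DESeq2 and with TMM scaling, and in TruSeq from 3 to 1 after thinning. V4 lay above TruSeq for 5 genes after thinning. No share of all genes is given for the thinned counts, for TMM scaling or without any 1 mouse. With a mouse left out fewer libraries have to lie apart, so those counts cannot be set against the share found with all mice. TMM scaling moved the summed log2 ratio of genes with a poly(A) signal to 2.16 for V4 to TruSeq and -1.83 for Pico to V4. With at least 5 or 10 counts, the mean number of replication-dependent genes detected was 26.8 or 16.2 for Pico, 19.3 or 12.2 for V4 and 9.83 or 6.0 for TruSeq.

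Small log2 fold changes that passed no threshold turned sign. With edgeR, DESeq2 and TMM scaling Hist1h2bc gave 0.027, 0.022 and 0.014 in Pico and 0.072, 0.078 and 0.071 in V4, and H2afy gave 0.10, 0.10 and 0.10 in V4 and 0.018, 0.018 and 0.0075 in TruSeq. H2afz in V4 gave 0.020 with TMM scaling. Leaving out each mouse gave log2 fold changes from -0.45 to 0.49 for H2afz and from -0.064 to 0.17 for H3f3a in Pico, and in V4 from -0.71 to 0.054 for H1f0, -0.15 to 0.060 for H2afy, -0.42 to 0.035 for H3f3a and -0.28 to 0.76 for Hist1h1e. Leaving out each mouse gave 0 to 1 higher and 1 to 2 lower calls of replication-dependent genes in Pico, 0 to 1 and 0 to 1 in V4, and 0 to 3 and 0 to 1 in TruSeq. Calls of variant genes then numbered 1 to 2 higher and 0 to 1 lower in Pico and in V4. Replication-dependent genes below TruSeq numbered 0 to 1 in Pico and in V4. For these counts without 1 mouse no share of all genes is given. The cause of these shifts was not tested. With the mouse as a replicate block, 0 histone genes were called for a difference in response in each pair, as without it. At 3 counts or fewer a library, a response of a replication-dependent gene in TruSeq could not be measured.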
